A study of Mus musculus with 10 samples.

Results

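The cytosolic sensors of foreign RNA and DNA were followed as 8 genes chosen by name from the 43432 genes of the count table. They are the RNA helicases *Ddx58* (RIG-I), *Ifih1* (MDA5) and *Dhx58* (LGP2), their adaptor *Mavs*, the DNA sensor *Mb21d1* (cGAS) with its adaptor *Tmem173* (STING), the sensor *Zbp1*, and the exonuclease *Trex1*, which removes cytosolic DNA. The rule names the genes and uses no measured value of theirs. Of the 8 genes, 7 were among the 14172 genes with enough counts to be tested, and *Trex1* had 0 counts in every library.

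The cells were RAW264.7, a transformed mouse macrophage line that serves as a model of macrophages in culture, and no genotype other than that of the line is given. There were 5 conditions with 2 libraries each, which the labels number as biological replicates. Resting cells received the solvent alone (0.5% DMSO), and stimulated cells received the solvent and LPS at 1 µg/mL (DMSO + LPS). The other cells received LPS after **1**, a monounsaturated keto fatty acid with an enone group, at 32, 10 or 3.2 µM. Pretreatment lasted 1 h and RNA was extracted at 12 h. All stimulated groups share the LPS dose, and none of these groups received **1** without LPS.

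RIG-I and MDA5 bind viral RNA in the cytosol and pass the signal to MAVS on mitochondria, while LGP2 lacks the signaling domains of the other helicases and modulates them. cGAS makes a cyclic dinucleotide on cytosolic DNA, which STING at the endoplasmic reticulum receives. Both adaptors lead to the kinases TBK1 and IKKε, to the factors IRF3 and IRF7 and to type I interferon, and interferon in turn raises many sensor genes, while ZBP1 binds Z-form nucleic acids and can start inflammatory cell death. LPS acts outside the cell on TLR4, which also leads to interferon in macrophages.

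The promoters are shown because the members divide into a group that rose with LPS and a group that did not, and both groups have members in the RefSeq promoter table (GRCm38.p6), which held 5 of the 8 (not *Dhx58*, *Zbp1* and *Tmem173*). Each window runs 5′ to 3′ on the gene's strand, from 250 bases before the start site to 50 bases after it. Capitals mark letters that match 1 of 4 short patterns searched on both strands. *Ddx58* lies at chr4:40239776-40240075 on the minus strand, *Ifih1* at chr2:62646206-62646505 on the minus strand, *Mavs* at chr2:131233813-131234112 on the plus strand and *Mb21d1* at chr9:78443188-78443487 on the minus strand.

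Ddx58 promoter: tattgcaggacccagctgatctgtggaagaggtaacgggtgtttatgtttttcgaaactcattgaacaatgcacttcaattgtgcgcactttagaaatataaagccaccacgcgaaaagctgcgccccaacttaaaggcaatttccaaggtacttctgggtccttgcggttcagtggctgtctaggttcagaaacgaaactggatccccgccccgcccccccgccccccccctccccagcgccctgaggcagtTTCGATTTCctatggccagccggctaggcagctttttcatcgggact
Ifih1 promoter: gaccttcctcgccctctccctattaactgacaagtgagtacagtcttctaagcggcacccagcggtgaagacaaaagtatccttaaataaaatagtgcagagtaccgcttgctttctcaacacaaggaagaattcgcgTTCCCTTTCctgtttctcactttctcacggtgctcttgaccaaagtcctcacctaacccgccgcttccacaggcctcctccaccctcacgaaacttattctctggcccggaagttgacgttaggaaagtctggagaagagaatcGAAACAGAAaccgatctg
Mavs promoter: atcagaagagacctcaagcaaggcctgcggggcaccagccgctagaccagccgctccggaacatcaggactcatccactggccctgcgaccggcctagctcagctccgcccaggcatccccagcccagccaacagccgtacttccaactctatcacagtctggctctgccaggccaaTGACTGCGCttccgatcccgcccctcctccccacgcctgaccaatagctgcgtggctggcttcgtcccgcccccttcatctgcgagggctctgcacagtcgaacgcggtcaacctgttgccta
Mb21d1 promoter: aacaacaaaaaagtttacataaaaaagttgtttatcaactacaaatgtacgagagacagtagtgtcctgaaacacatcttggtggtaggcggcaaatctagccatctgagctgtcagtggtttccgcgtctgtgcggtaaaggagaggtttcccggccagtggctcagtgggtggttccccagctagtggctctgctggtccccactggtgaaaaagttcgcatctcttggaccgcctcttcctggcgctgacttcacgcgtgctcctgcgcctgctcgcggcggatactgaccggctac

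The core of the interferon-stimulated response element, GAAANNGAA, was in 8.56% of the 32841 promoters searched. It was found in *Ddx58* on the reverse strand at +4 to +12 from the start site, and in *Ifih1* on the reverse strand at -112 to -104 and on the gene's strand at +33 to +41. A longer form with 1 more A, present in 3.44% of promoters, also matched in both genes. *Mavs* held the core of the antioxidant response element, TGACNNNGC, at -73 to -65, as did 12.4% of all promoters. The kappa-B letters GGGNNTTTC (4.36% of promoters) and the gamma-activated site TTCNNNGAA (8.30%) matched in none of these windows, and no pattern matched in *Mb21d1* or in the pair of *Trex1* windows. A match is a string of letters and was not tested for binding.

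Libraries held 45966803 to 58976377 counts. CPM below is the count per 1000000 of the TMM-scaled library total. A gene was called when edgeR's quasi-likelihood test gave a Benjamini-Hochberg adjusted p under 0.05 and a change of at least 1.5-fold. The log2 cutoff used for 1.5-fold was the log ratio that the authors give, which lies slightly above the exact log2 of 1.5. The 7 macrophage markers summed to 9948 CPM in DMSO, 6488 CPM in DMSO + LPS and 5159 CPM at 32 µM. *Cd3e*, *Cd3g*, *Cd4* and *Cd8a* of T cells, and the 3 B cell and 3 endothelial markers, stayed under 1 CPM in every library. The 3 epithelial markers (*Epcam*, *Krt8*, *Cdh1*) reached 36.3 CPM in replicate 1 at 10 µM and 5.52 CPM in replicate 1 at 3.2 µM, against at most 0.0680 CPM elsewhere. The 3 fibroblast markers summed to 2.94 CPM in replicate 1 at 10 µM and to at most 0.367 CPM elsewhere. Calls at those doses are also given without these libraries, and the part of the marker changes in the results was not tested. Ribosomal RNA held 2.83% of replicate 2 at 32 µM and 0.153% to 0.333% of the others. Replicates also differed in a short-transcript score (the median log2 CPM of 1409 genes with short transcripts, relative to the mean library), which for replicates 1 and 2 was -0.03 and -0.37 in DMSO, 0.28 and -0.10 with 10 µM, and 0.18 and -0.18 with 32 µM. Scaling by library size alone moved the median of all genes by -0.20 for LPS on the log2 scale, and the share of LPS calls that were higher from 51.8% to 35.1%.

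LPS raised all 3 RNA helicases and *Zbp1*, while *Mavs*, *Mb21d1* and *Tmem173* were not called. *Ddx58*, *Ifih1* and *Dhx58* rose about equally, and *Zbp1*, low in resting cells, rose much more. In total 4 of the 7 tested members were called higher and 0 lower, while 14.6% of all genes tested were called higher and 13.6% lower. The median log2 fold change was 2.22 over the members and 0.00 over all genes. The plot of CPM by library shows every value of the 7 members.

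**Figure D1:**
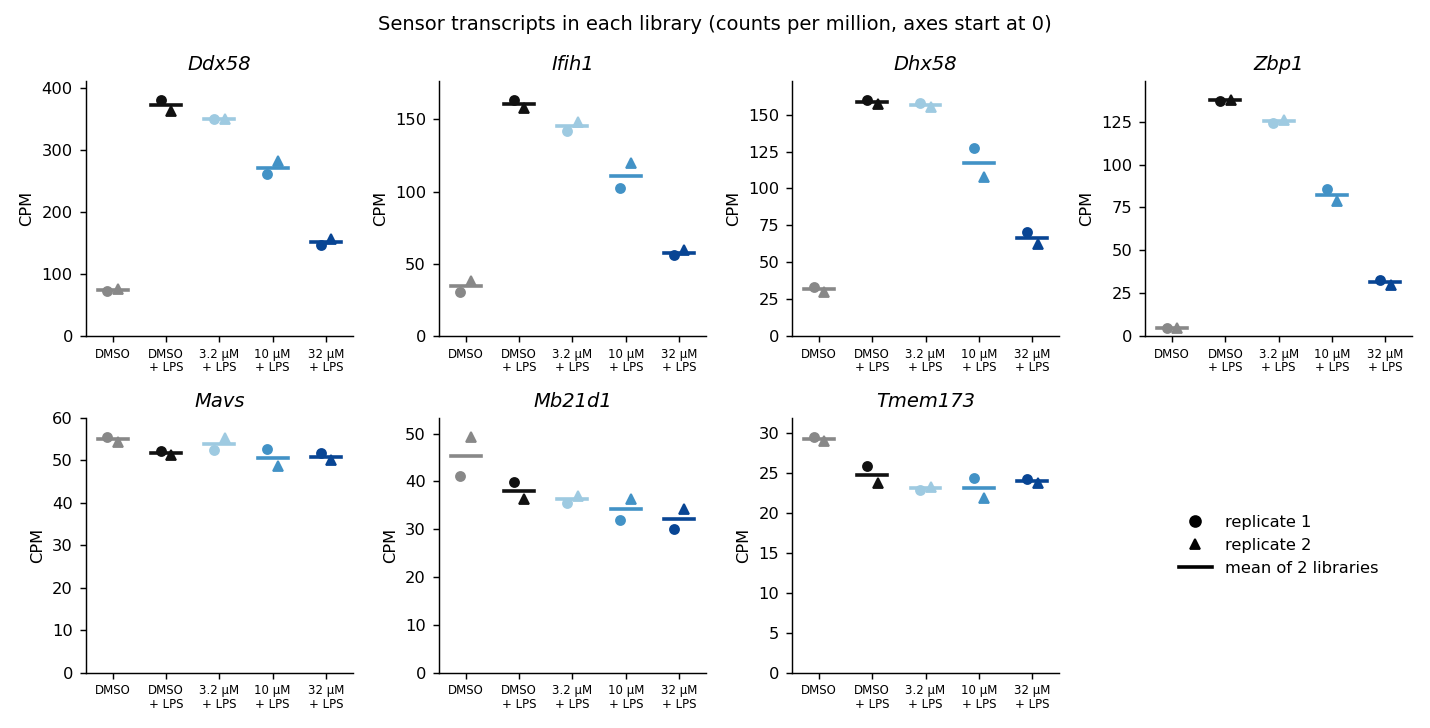
CPM of the 7 tested sensors (vertical axes, from 0) in the 10 libraries, grouped by condition on the horizontal axes. Circles are replicate 1, triangles replicate 2 and lines the means; *Ddx58*, *Ifih1*, *Dhx58* and *Zbp1* are highest in DMSO + LPS and lower at 10 and 32 µM, whereas *Mavs* stays between 48.6 and 55.6 CPM.

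*Ddx58*, the helicase that recognizes RNA with a 5′ triphosphate, is annotated on GRCm38 at chr4:40203773-40239828 (ENSMUSG00000040296). Resting cells held 72.0 and 75.9 CPM, and DMSO + LPS raised this to 381 and 364 CPM. Both libraries at 3.2 µM held 351 CPM, those at 10 µM held 261 and 282 CPM, and those at 32 µM held 147 and 157 CPM. The libraries of each dose lay below those of the next lower dose and of DMSO + LPS without overlap, and those at 32 µM stayed above resting cells. The log2 fold change was 2.33 ± 0.06 (SE, n = 2 per group) with LPS (adjusted p = 3.84e-08) and -1.29 ± 0.06 at 32 µM against DMSO + LPS (adjusted p = 8.74e-06).

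*Ifih1*, at chr2:62595798-62646255 (ENSMUSG00000026896), encodes the helicase that binds long RNA duplexes. Resting libraries had 30.7 and 38.3 CPM, stimulated libraries 163 and 158 CPM, and those at 3.2 µM 142 and 148 CPM. The 10 µM libraries had 102 and 120 CPM, and the 32 µM libraries 55.9 and 59.4 CPM. The groups again did not overlap, although replicate 1 was lower than replicate 2 at 10 µM and in DMSO. The log2 fold change was 2.22 ± 0.11 with LPS (adjusted p = 1.43e-06) and -1.48 ± 0.11 at 32 µM (adjusted p = 0.000106).

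*Dhx58*, at chr11:100694884-100704271 (ENSMUSG00000017830), encodes LGP2, the modulator of the pair above. Resting libraries had 33.3 and 29.9 CPM, stimulated libraries 160 and 157 CPM, and those at 3.2 µM 158 and 155 CPM. The 10 µM libraries had 127 and 108 CPM, and the 32 µM libraries 70.4 and 62.0 CPM. Only the groups DMSO + LPS and 3.2 µM overlapped. The log2 fold change was 2.33 ± 0.10 with LPS (adjusted p = 4.71e-07) and -1.26 ± 0.09 at 32 µM (adjusted p = 0.000106). The antisense gene *Dhx58os* shares 141 nt of its exons and held 4 to 26 counts, against at least 1695 counts for *Dhx58*. The use of the strand in counting is not given in the sources used here, so how reads in these shared bases were counted is not known.

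*Zbp1*, the sensor of Z-form nucleic acids, lies at chr2:173206612-173218923 (ENSMUSG00000027514). It was near the bottom in resting cells, with 280 and 253 counts (4.76 and 4.46 CPM), and reached 137 and 138 CPM in DMSO + LPS. At 3.2 µM it held 125 and 126 CPM, at 10 µM 86.1 and 78.8 CPM, and at 32 µM 32.9 and 29.7 CPM. No 2 of the 5 groups overlapped. LPS raised it 29.8-fold (log2 fold change 4.90 ± 0.08, adjusted p = 3.83e-09). At 32 µM it was 4.40-fold lower than with LPS alone (log2 fold change -2.14 ± 0.07, adjusted p = 1.91e-06). These are RNA levels of whole cultures, in which fewer expressing cells and less RNA per cell cannot be told apart.

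Against DMSO + LPS, **1** at 32 µM thus called 4 members lower and 0 higher: *Ddx58*, *Ifih1*, *Dhx58* and *Zbp1*. Of all genes tested, 2.91% were called lower and 1.26% higher. The comparison shares its DMSO + LPS libraries with the LPS comparison. Without replicate 2 at 32 µM, the library with more ribosomal RNA, the log2 fold changes were -1.35 for *Ddx58*, -1.52 for *Ifih1*, -1.17 for *Dhx58* and -2.07 for *Zbp1*, and all 4 stayed called. Within DMSO, 10 and 32 µM alike, replicate 1 had the higher short-transcript score, higher *Dhx58* and *Zbp1* and lower *Ddx58*, *Ifih1* and *Mb21d1*. With that score as a term, the 4 log2 fold changes at 32 µM lay between -2.12 and -1.24, and all were called.

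At 10 µM only *Zbp1* was called, at -0.74 ± 0.06 (adjusted p = 0.00177), where 0.579% of all genes were called lower. *Ddx58* at -0.46 (adjusted p = 0.00752) and *Ifih1* at -0.53 (adjusted p = 0.0497) passed the adjusted p but not the 1.5-fold cutoff, and *Dhx58* at -0.43 passed neither (adjusted p = 0.0605). The 10 µM libraries of all 4 genes lay below those of DMSO + LPS. Without replicate 1 at 10 µM, which held epithelial transcripts, *Zbp1* was at -0.80 (adjusted p = 0.00428), and without both libraries that held them its adjusted p was 0.0301. Without both, *Ddx58* (-0.40, adjusted p = 0.135) and *Ifih1* (-0.42, adjusted p = 0.361) no longer passed the adjusted p. Without replicate 1 at 10 µM alone *Ifih1* did not pass it either (adjusted p = 0.190), while *Dhx58* did, at -0.56 (adjusted p = 0.0357). Without replicate 2 at 10 µM, *Ifih1* was called as well, at -0.68 (adjusted p = 0.0276).

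At 3.2 µM edgeR's quasi-likelihood test called 0 members, and 0 of all genes (0%), 600 of which had an unadjusted p under 0.05. None of the 7 members had such a p, and the likelihood ratio test of edgeR and the Wald test of DESeq2 (all 10 libraries, or the 4 compared) also called 0 members. Of all genes these called 3, 8 and 42 in that order, and edgeR's quasi-likelihood fit of the 4 libraries called 48 higher and 18 lower, no member among them. The log2 fold change and its 95% interval was -0.09 (-0.22 to 0.05) for *Ddx58*, -0.15 (-0.40 to 0.10) for *Ifih1*, -0.02 (-0.23 to 0.20) for *Dhx58* and -0.14 (-0.28 to 0.01) for *Zbp1*. With the short-transcript score as a term *Zbp1* was at -0.17 (adjusted p = 0.0236), far from the fold cutoff. The plot of log2 fold changes sets the doses side by side.

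**Figure D2:**
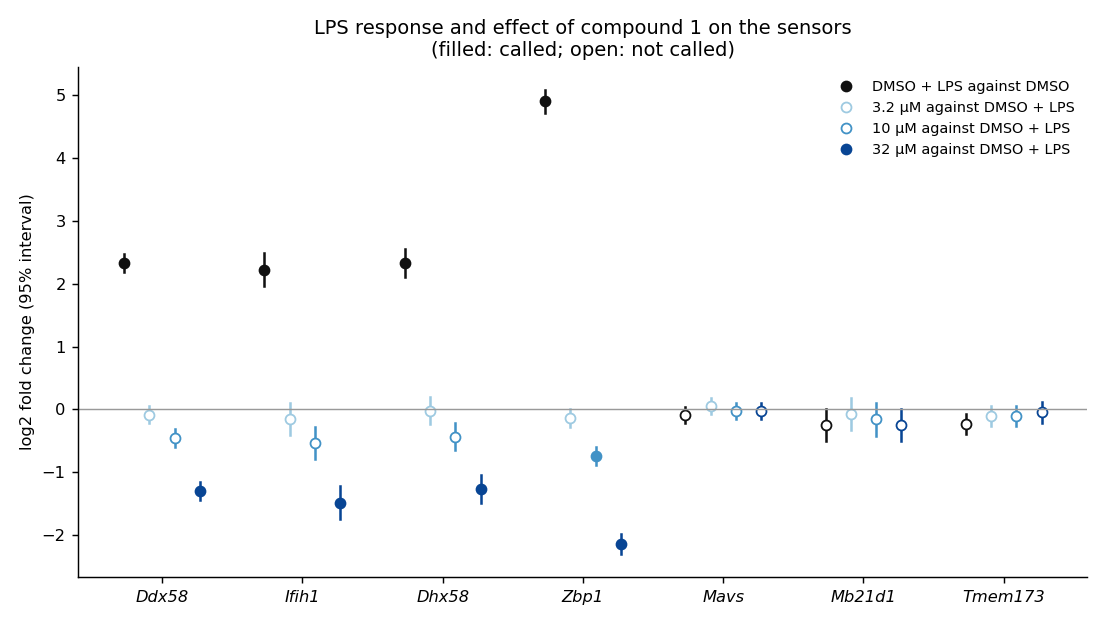
Log2 fold change (vertical axis, with 95% intervals from the edgeR fit) of each sensor for LPS against DMSO and for 3.2, 10 and 32 µM against DMSO + LPS, with filled points for called genes. *Zbp1* has the largest LPS rise (4.90) and the largest fall at 32 µM (-2.14), and it alone is filled at 10 µM.

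Neighboring doses were also compared directly. From 10 to 32 µM the same 4 genes were called lower (*Ddx58* -0.84, *Ifih1* -0.95, *Dhx58* -0.83 and *Zbp1* -1.40 on the log2 scale), with 1.15% of all genes called lower. In edgeR's quasi-likelihood fit of only the 4 libraries compared, 0 of them were called, with adjusted p of 0.0603 to 0.153, and that fit called 5 genes in all, whereas the Wald test of DESeq2 on those libraries called all 4 sensors. From 3.2 to 10 µM *Zbp1* alone was called (-0.60 ± 0.06, adjusted p = 0.00857), with 0.183% of all genes called lower. That call was lost without either 3.2 µM library (adjusted p = 0.135 without replicate 1 and 0.136 without replicate 2), without replicate 2 at 10 µM (-0.55) and without both libraries with epithelial transcripts (adjusted p = 0.213). It was also lost in edgeR's fit of the 4 libraries (adjusted p = 0.166), and by the fold cutoff under library size alone (-0.59) and with the short-transcript score as a term (-0.58).

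The share of the LPS-induced difference in mean CPM that was left described the doses on a linear scale. At 3.2 µM 92.7% of it was left for *Ddx58*, 87.5% for *Ifih1*, 98.5% for *Dhx58* and 90.7% for *Zbp1*. At 10 µM the shares were 66.2%, 60.6%, 67.5% and 58.5% in the same order, and at 32 µM they were 26.1%, 18.3%, 27.2% and 20.04%. The replicates at 10 µM spread widely, from 53.7% to 67.6% for *Ifih1* and from 59.8% to 75.2% for *Dhx58*, and the genes overlapped there except that both *Zbp1* libraries (61.2% and 55.8%) lay below both *Ddx58* libraries (62.7% and 69.8%). At 32 µM the *Ddx58* libraries (24.4% and 27.9%) lay above those of *Ifih1* (17.0% and 19.7%) and *Zbp1* (21.2% and 18.8%), and *Dhx58* (30.5% and 23.9%) overlapped *Ddx58*.

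**Figure D3:**
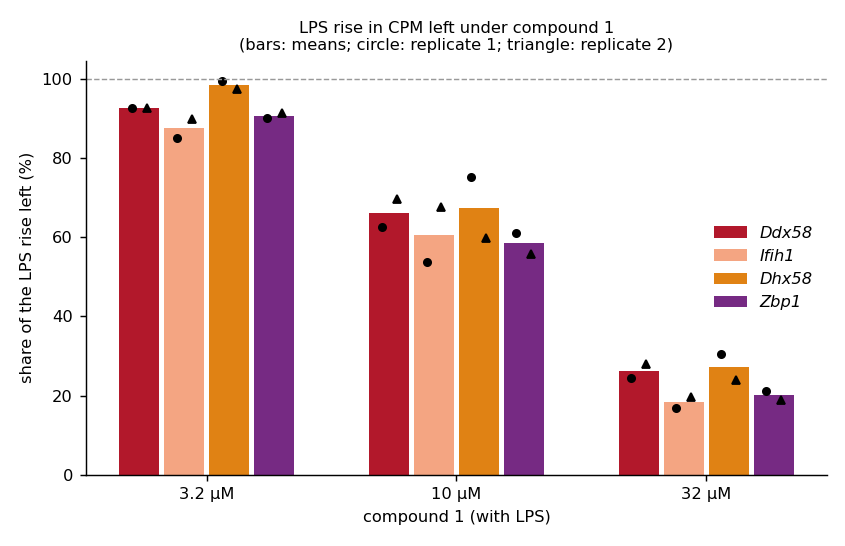
Share of the LPS-induced rise in mean CPM that was left (vertical axis, percent, from 0) for the 4 induced sensors at 3.2, 10 and 32 µM of **1**; bars are means, circles replicate 1 and triangles replicate 2. All bars lie at 87.5% or above at 3.2 µM and at 27.2% or below at 32 µM.

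None of the 4 genes was back at its resting level at 32 µM. Against DMSO, all 4 were called higher, with log2 fold changes of 1.04 for *Ddx58*, 0.74 for *Ifih1*, 1.07 for *Dhx58* and 2.76 for *Zbp1*, where 13.8% of all genes were called higher. The *Ifih1* call was lost at 0.54 under library size alone. Without replicate 1 of DMSO *Ifih1* stood at 0.59, between the exact log2 of 1.5 and the slightly higher log2 cutoff used here. *Mb21d1*, at -0.50 (adjusted p = 0.00649), passed the 1.5-fold cutoff only in these alternatives: without replicate 1 of DMSO (-0.63), without replicate 2 at 32 µM (-0.60) and under library size alone (-0.70).

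The adaptor *Mavs*, at chr2:131234063-131248025 (ENSMUSG00000037523), was the steadiest member in TMM-scaled CPM. Its 10 libraries ranged from 48.6 to 55.6 CPM. Its log2 fold change was -0.09 with LPS (95% interval -0.22 to 0.04, adjusted p = 0.224) and -0.02 at 32 µM (-0.15 to 0.11, adjusted p = 0.895). Both intervals lie well inside a 1.5-fold change. The LPS value was -0.30 (adjusted p = 0.00272) under library size alone and -0.13 (adjusted p = 0.0324) with the short-transcript score as a term.

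*Mb21d1*, the gene of cGAS at chr9:78430526-78443237 (ENSMUSG00000032344), held 41.2 and 49.4 CPM in DMSO and 39.9 and 36.3 CPM in DMSO + LPS. It held 35.5 and 37.0 CPM at 3.2 µM, 31.9 and 36.4 CPM at 10 µM, and 30.0 and 34.2 CPM at 32 µM. From DMSO through DMSO + LPS, 3.2 and 10 to 32 µM the means were 45.3, 38.1, 36.2, 34.1 and 32.1 CPM, with overlap between most neighboring groups. Neither the LPS difference (-0.25 ± 0.11, adjusted p = 0.0973) nor that at 32 µM against DMSO + LPS (-0.25 ± 0.11, adjusted p = 0.248) passed the test. The LPS value depended on single libraries, at -0.38 (adjusted p = 0.0365) without replicate 1 of DMSO and -0.13 without replicate 2, and was -0.46 (adjusted p = 0.00742) under library size alone. With the short-transcript score as a term it was -0.09, and the value at 32 µM was -0.29 (adjusted p = 0.000504), all short of the fold cutoff. The pseudogene *Gm8093* shares 201 nt with it on the opposite strand and held 20 to 48 counts.

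*Tmem173*, the gene of STING (ENSMUSG00000024349), held 29.5 and 28.9 CPM in DMSO and 25.9 and 23.7 CPM in DMSO + LPS. With **1** it ranged from 21.8 to 24.3 CPM over the 6 libraries. Both LPS libraries lay below both DMSO libraries, and the difference of -0.24 ± 0.07 passed the adjusted p (0.0206) but was a change of only 1.18-fold. Its adjusted p was 0.0828 without replicate 1 of DMSO and 0.140 without replicate 2 of DMSO + LPS. Under library size alone the difference was -0.44 (adjusted p = 0.000824), and with the short-transcript score as a term -0.27 (adjusted p = 0.00281). The log2 fold change at 32 µM against DMSO + LPS was -0.05 (95% interval -0.21 to 0.11).

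*Trex1*, at chr9:109057933-109059734 (ENSMUSG00000049734), was listed at 0 in all 10 libraries. In GENCODE M21 all 1147 nt of its exons lie within exons of *Atrip*, a DNA damage gene on the same strand. The table holds 55 protein-coding genes, *Trex1* included, whose exons lie wholly in same-strand exons of other counted genes. All 55 had 0 counts in every library, against 27.0% of 16077 protein-coding genes that share no exon base. Of 33 whose exons lie wholly in opposite-strand exons, 29 (87.9%) had 0 counts too. *Atrip* itself held 653 to 992 counts and was not called with LPS (-0.12 ± 0.09, adjusted p = 0.299) or at 32 µM (0.12 ± 0.09, adjusted p = 0.529). The 0 of *Trex1* therefore gives no level for this gene in either direction. How reads in the bases shared with *Atrip* were counted is not known.

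Levels of different genes were compared per length, as CPM per kilobase of merged exons (RPKM). In DMSO *Mavs* led at 16.4 ± 0.3 RPKM (SD, n = 2). *Mb21d1* (10.97), *Tmem173* (10.7) and *Ddx58* (10.5) followed with overlapping libraries, *Dhx58* (9.66) overlapped *Mb21d1*, and *Ifih1* (4.22) and *Zbp1* (1.31) came last. In DMSO + LPS the order was *Ddx58* (52.9), *Dhx58* (48.5), *Zbp1* (39.0), *Ifih1* (19.7) and *Mavs* (15.5), with *Mb21d1* (9.22) and *Tmem173* (9.04) overlapping at the bottom. *Mavs*, the adaptor, thus stood below all 3 helicases and *Zbp1* after LPS. Per length of the longest transcript the order in DMSO + LPS kept these 5 genes in place, but in DMSO *Ddx58* (19.1 RPKM) stood above *Mavs* (17.98 RPKM), so the lead of *Mavs* in resting cells rests on the length used.

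**Figure D4:**
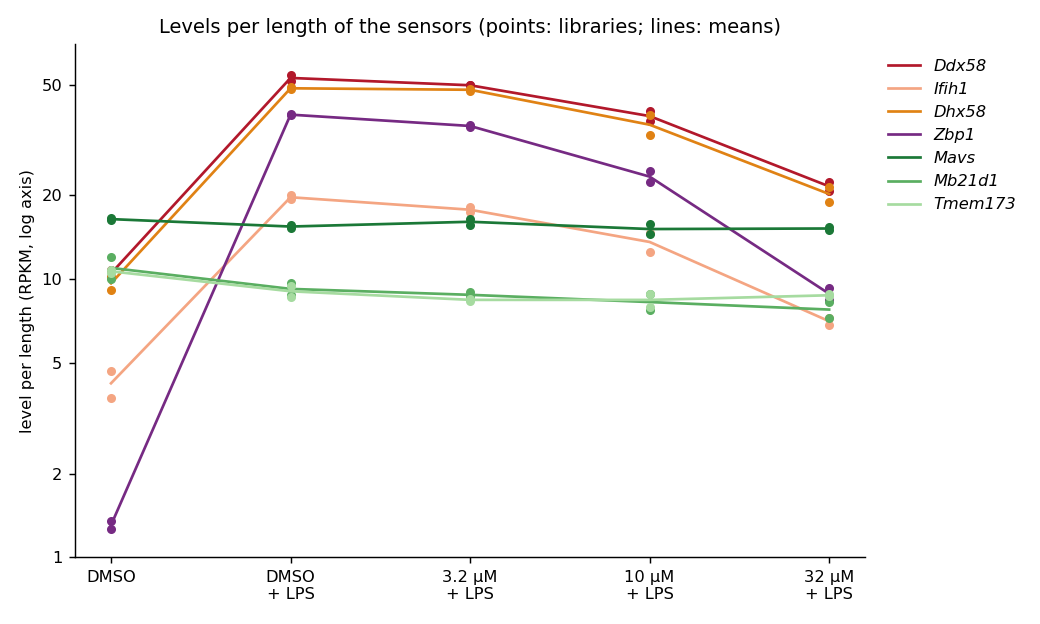
Level per length of the 7 tested sensors (vertical axis, RPKM on a log scale) in the 5 conditions, with points for libraries and lines through the means. *Zbp1* crosses from 1.31 RPKM in DMSO to 39.0 RPKM in DMSO + LPS and returns to 8.86 RPKM at 32 µM, below *Mavs* (15.2 RPKM).

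With **1** the order changed again. At 10 µM *Mavs* (15.1 RPKM) and *Ifih1* (13.6 RPKM) overlapped, but per length of the longest transcript *Ifih1* (20.3 RPKM) lay above *Mavs* (16.6 RPKM) without overlap. At 32 µM *Ddx58* (21.5) and *Dhx58* (20.2) overlapped above *Mavs* (15.2), and *Zbp1* (8.86), *Tmem173* (8.75), *Mb21d1* (7.77) and *Ifih1* (7.06) came last. Per length of the longest transcript *Ddx58* (39.2 RPKM) lay above *Dhx58* (27.4 RPKM) without overlap. Per merged exons *Ifih1* was the lowest of the 7 at that dose, with libraries that overlapped those of *Mb21d1* only, but per length of the longest transcript it stood at 10.5 RPKM, above *Mb21d1* (7.92) and *Zbp1* (9.41). Counts of *Zbp1* per count of *Ddx58* in the same library were 0.0662 and 0.0588 in resting cells, 0.360 and 0.379 with LPS alone, and 0.224 and 0.189 at 32 µM, and these 3 groups do not overlap. The ratio of *Dhx58* to *Ddx58* counts stayed between 0.381 and 0.487 in all libraries and that of *Ifih1* to *Ddx58* between 0.378 and 0.505.

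The genes whose log2 CPM followed each member most closely over the 10 libraries were named among 9562 genes with a mean of at least 5 CPM. The libraries share the LPS step and the doses, so these correlations are a description and carry no test. For *Ddx58* they were *Phf11d*, *Sp100* and *Trim30a* (Pearson's r of 0.999 each), for *Ifih1* *Parp14*, *Herc6* and *Sass6* (r of 0.997 to 0.998), and for *Dhx58* *Ube2l6*, *Tor3a* and *Cxcl10* (0.998 to 0.999). *Zbp1* was closest to *Irf7*, *Usp18* and *Oasl2* (0.999 each). *Mb21d1* (*Tbl1x*, *Picalm*, *Cntrl*) and *Tmem173* (*Wwp2*, *Mroh1*, *Fmnl1*) reached 0.961 to 0.983, and *Mavs* 0.942 with *Retreg3*, 0.901 with *Srsf4* and 0.900 with *Oxnad1*. Over the 8 libraries with LPS, r for the same genes was 0.996 to 0.999 for the 4 induced sensors, from 0.951 for *Mb21d1*, from 0.796 to 0.862 for *Tmem173* and up to 0.916 for *Mavs*.

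The wider pathway was described by 6 lists with 59 genes, of which 57 were tested. LPS called 21 of them higher and 5 lower, where 14.6% and 13.6% of all genes were. The kinases and factors downstream of both adaptors had 4 of 7 higher, led by *Ikbke*, the inducible kinase IKKε (4.87 to 66.6 mean CPM, log2 fold change 3.77, adjusted p = 1.13e-07), *Irf7* (3.21, adjusted p = 1.26e-08) and *Nfkb1* (1.63, adjusted p = 1.68e-07). Other nucleic acid sensors had 3 of 8 higher, namely *Ifi204*, a DNA-binding sensor (4.21, adjusted p = 7.97e-09), the helicase *Ddx60* (2.71, adjusted p = 4.82e-06) and *Eif2ak2*, the RNA-dependent kinase PKR (1.14, adjusted p = 3.81e-05). Among RNA sensing partners 6 of 14 were higher, the top 3 being *Tank* (0.85), *Trim25* (0.70) and *Zc3hav1* (0.68), and *Prkra* was lower (-0.61). Among DNA sensing partners *Surf4* (0.86) and *Trim56* (0.61) were higher and *Nlrc3*, known to restrain STING, was lower (-0.80), and 8 of 11 were not called. Among clearing and editing enzymes 4 of 12 were higher, led by *Adar* (1.24), *Samhd1* (0.91) and *Pnpt1* (0.65), and 3 were lower, *Pld4* (-0.95), *Rnaseh2a* (-0.64) and *Rnaseh2b* (-0.63). Of the 5 ZBP1 partners in cell death, *Mlkl* (2.00) and *Casp8* (0.95) were higher.

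At 32 µM against DMSO + LPS, 7 of the 57 were called lower and 0 higher, beside 2.91% and 1.26% of all genes. They were *Ifi204* (185 to 54.3 mean CPM, log2 fold change -1.77, adjusted p = 5.41e-06), *Ddx60* (-1.58, adjusted p = 0.000593), *Irf7* (862 to 308 mean CPM, -1.48, adjusted p = 5.83e-06), *Eif2ak2* (-0.91, adjusted p = 0.000915), *Samhd1* (-0.88, adjusted p = 9.25e-06), *Ikbke* (-0.69, adjusted p = 0.00489) and *Adar* (-0.68, adjusted p = 0.000107). Both comparisons use the same DMSO + LPS libraries. The median log2 fold change over the 57 was -0.05, against 0.01 over all genes.

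**Figure D5:**
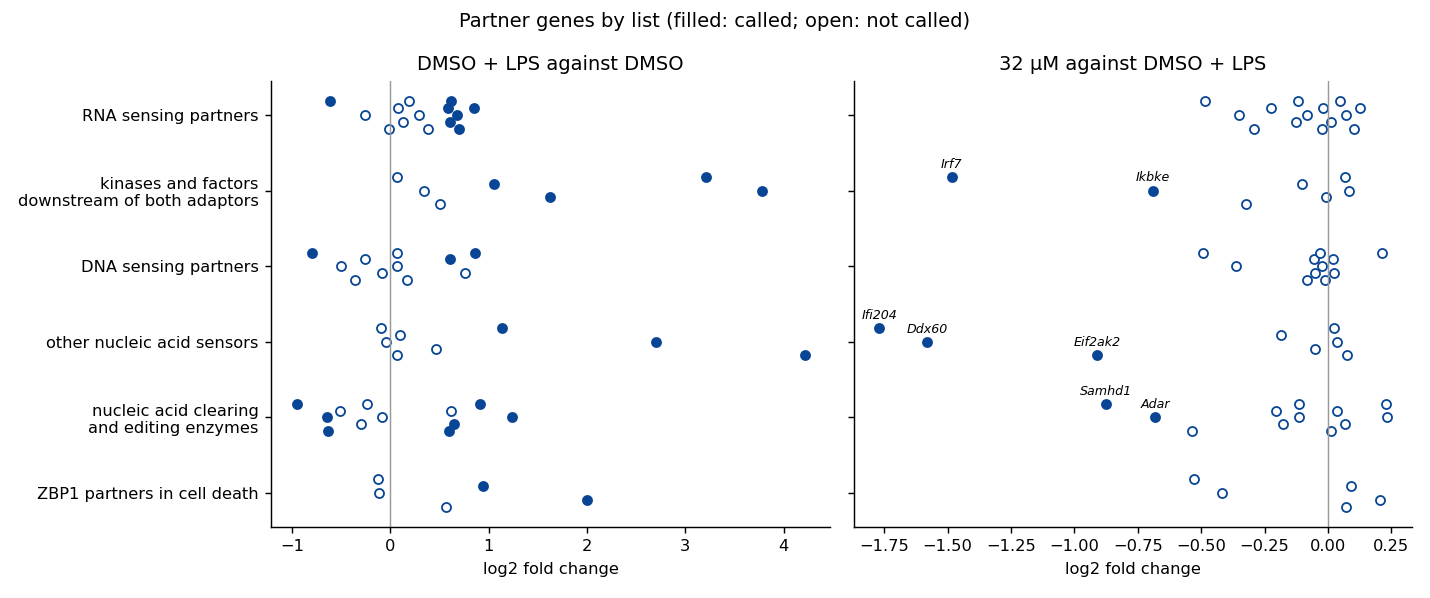
Log2 fold change (horizontal axes) of the 57 tested partner genes in 6 lists (rows), for LPS against DMSO on the left and 32 µM against DMSO + LPS on the right; filled points are called genes. On the right 7 named genes are called lower, in 3 of the lists.

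The other 3 lists had 0 calls at 32 µM. These were the RNA sensing partners (14 tested, 5 at an unadjusted p under 0.05), the DNA sensing partners (11 tested, 1 at that p) and the ZBP1 partners in cell death (5 tested, 3 at that p). In the same order, 2, 1 and 2 genes passed the adjusted p and missed only the fold cutoff. DESeq2's Wald test and edgeR's likelihood ratio test, with the same fold cutoff, called 0 in each of these lists too. The median log2 fold change was -0.05, -0.03 and 0.07 in that order. At 10 µM 1 of the 57 was called lower, *Ifi204* at -0.60 (adjusted p = 0.00478, named after its value was seen), beside 0.579% of all genes. The likelihood ratio test and both DESeq2 fits called 2, the other being *Ddx60*, which stood at -0.61 (adjusted p = 0.12) in edgeR's quasi-likelihood test. Without both libraries with epithelial transcripts the *Ifi204* call was lost (-0.59, adjusted p = 0.0984), *Ddx60* was at -0.39 (adjusted p = 0.489) and *Irf7* was called instead (-0.64, adjusted p = 0.0308). At 3.2 µM edgeR called 0, with 3 at an unadjusted p under 0.05.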

How the data were processed

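RNA from RAW264.7 cells was sequenced in 5 conditions with 2 libraries each. The authors made poly(A)-selected, directional libraries and deposited for each mouse Ensembl gene its raw counts, which are not normalized. Per the submitters' processing notes, Trimmomatic, FastQC, STAR, DESeq2 and mm10 were used; versions, the counting tool, its use of the strand and its annotation are not given in the sources used here. Symbols, positions and lengths came from GENCODE M21 on GRCm38 and promoters from RefSeq on GRCm38.p6.

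Genes passing filterByExpr with a minimum count of 10 were scaled by TMM and fitted in 1 model of all 10 libraries, 1 mean per condition, with edgeR 4.0.16 (R 4.3.3). Quasi-likelihood F tests with Benjamini-Hochberg adjustment over the 14172 genes gave the adjusted p values, and intervals used the fit's degrees of freedom. DESeq2 1.42.0 and other settings served as alternatives, and the steps were tested on simulated data. The p-values measure the spread between these libraries. Intervals and floors cover counting and replicate error only.

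The members and lists were chosen with earlier results of these data known. Genes named are the members, genes overlapping them, the 3 genes most like each member, and in each list up to 3 called genes with the highest and 3 with the lowest log2 fold change for LPS and for 32 µM. The exclusion of both libraries with epithelial transcripts was chosen after seeing the data. No library was left out of the main results.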

Additional observations from a re-analysis of the deposited data

How the results depend on the processing

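The counts of sensors called with LPS (4), at 32 µM against DMSO + LPS (4), at 3.2 µM (0) and at 32 µM against DMSO (4) were kept or stayed within 1.5 times under the 24 alternatives, and so were the member calls for LPS and 32 µM against DMSO + LPS, apart from *Tmem173* with LPS (-0.24), which was called without a fold cutoff. A cutoff of 1 on the log2 scale left 0 sensors called at 10 µM against DMSO + LPS, 1 from 10 to 32 µM (*Zbp1*) and 0 from 3.2 to 10 µM, and it left 9 list genes higher and 0 lower with LPS and 3 lower at 32 µM. Adjusted p alone, which calls more by construction, gave 3 sensors at 10 µM, 2 from 3.2 to 10 µM, 10 list genes lower with LPS, and 1 higher and 14 lower at 32 µM. Library size alone called 13 list genes higher with LPS and 0 sensors from 3.2 to 10 µM. There the change of *Zbp1* lay in size between the exact log2 of 1.5 and the slightly higher cutoff used. The exact log2, an alternative chosen after seeing the data, changed no call of a sensor or list gene in the main results. In edgeR's quasi-likelihood fit of the 4 libraries compared, 0 sensors were called from 10 to 32 µM and 0 from 3.2 to 10 µM, against 4 and 1 by DESeq2 on those libraries. With the short-transcript score as a term 0 were called from 3.2 to 10 µM, where *Zbp1* was at -0.58, and 0 without both libraries with epithelial transcripts. The fold cutoffs act by construction, and the cause of the other changes was not tested.

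Leaving out each library in turn gave 1 to 2 sensors called at 10 µM and 0 to 1 from 3.2 to 10 µM. A condition left with 1 library then borrows the spread of the rest. Values called in no fit changed sign as follows. *Mavs* at 10 µM ranged from -0.090 to 0.0044 when each library was left out, and from 10 to 32 µM from -0.044 to 0.066 (-0.015 without replicate 1 at 32 µM, -0.00032 under library size alone). *Mb21d1* ranged from -0.19 to 0.017 from 10 to 32 µM and from -0.20 to 0.0063 from 3.2 to 10 µM. *Tmem173* ranged from -0.11 to 0.017 at 32 µM, from -0.013 to 0.14 from 10 to 32 µM, and from -0.081 to 0.063 from 3.2 to 10 µM, where it was 0.018 under library size alone, 0.0041 with a mean of at least 5 CPM and 0.0095 with the short-transcript score.

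Replicate numbers were not taken as pairs, since no label ties them to a shared day or culture and the replicate differences correlated over 0.1 in only 5 of 10 pairs of conditions (-0.16 to 0.60). With a replicate block the sensors called were 4 with LPS, 4 at 32 µM, 1 at 10 µM, 0 at 3.2 µM, 4 from 10 to 32 µM, 1 from 3.2 to 10 µM and 4 at 32 µM against DMSO, and the lists kept 21 higher and 5 lower with LPS and 7 lower at 32 µM. Of 1176 member values under alternatives, 1133 kept direction and call. With 2 libraries a group, *Zbp1* in DMSO rests on 253 and 280 counts.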
